A study of Mus musculus with 16 samples.

Results

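Major histocompatibility complex (MHC) class I molecules and the proteins that load them with peptide were followed through 8 genes, taken by symbol from a table of 12012 genes. The 8 are the class I heavy chains H2-K1, H2-D1 and H2-T22, the light chain B2m, the transporter subunits Tap1 and Tap2, and the peptide editors Tapbp and Tapbpl. The rule lists symbols and sets no threshold on a measured value. All 8 passed the filter on low values (a mean of at least 1 FPKM, which counts fragments relative to gene length and library size) in both RNA fractions.

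The cells were blasts of a T cell acute lymphoblastic leukaemia (T-ALL) in C57BL/6 mice that received it as a secondary transplant. NOTCH-ΔE, a truncated Notch receptor that signals without ligand, drives this leukaemia. The transplanted mice spent 3 weeks on a control diet with 8 g/kg valine, on a diet without valine (0 g/kg), or on that diet with 0.4 or 0.8 g/kg valine. Every group, the control included, carried this leukaemia, and no normal T cells were among the samples. Blasts were sorted from spleen by their GFP. Their total RNA was sequenced, and so were ribosome-protected fragments (RPF), the pieces of mRNA left under ribosomes after nuclease treatment. There were 16 libraries: every diet and fraction had 2, 1 called T-ALL 2 and 1 T-ALL 3. Whether these numbers stand for separate primary tumours or only separate recipients is not in the labels, and p-values therefore measure only the spread between these samples.

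Class I molecules carry peptides from inside the cell to its surface, where CD8+ T cells read them. The proteasome cuts proteins into peptides, the TAP1 and TAP2 transporter pumps these into the endoplasmic reticulum, and tapasin (Tapbp) holds an empty heavy chain with its light chain B2m beside the transporter until a peptide fits. Tapbpl encodes TAPBPR, a relative of tapasin that edits peptides on class I away from the transporter. Interferons raise most genes of this pathway, through IRF and STAT factors and the coactivator NLRC5, and NF-kappaB adds to the transcription of heavy chains and B2m. Leukaemias and other tumours can lower class I and so become less visible to T cells.

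Recovered reads numbered 364685 to 1269364 in total RNA libraries and 41848 to 205545 in RPF libraries. Within each diet the T-ALL 3 library of total RNA held fewer reads than the T-ALL 2 library, 364685 to 846162 against 704777 to 1269364. The T cell label held in total RNA: the 11 listed T cell markers, all in the table, made up 31.7 to 42.3 of 10000 reads. There 0 g/kg (32.3 to 33.2) overlapped 8 g/kg (32.0 to 39.6). In RPF these markers made up 25.6 to 38.9 of 10000 reads. Markers of other cells were rarer, and those of neutrophils and erythroid cells moved with diet. Neutrophil markers without valine made up 2.08 to 4.54 of 10000 total RNA reads, against 0.158 to 0.165 in the controls. Erythroid markers went the other way, with 0.156 to 0.280 of 10000 reads at 0 g/kg and 1.64 to 4.04 at 8 g/kg. In RPF, neutrophil markers without valine made up 25.3 of 10000 reads (T-ALL 2) and 2.91 (T-ALL 3), against 0.239 and 0.420 in the controls. T cell markers made up 34.1 (T-ALL 2) and 28.0 (T-ALL 3) of 10000 reads in these valine-free libraries. In T-ALL 2 neutrophil markers thus came near them. Erythroid markers in RPF made up 0.498 and 2.53 of 10000 reads at 0 g/kg, against 4.54 and 17.1 at 8 g/kg. Macrophage markers made up 0.0548 to 0.241 of 10000 reads in total RNA and 0.342 to 3.64 in RPF. Natural killer cell markers made up 3.99 to 6.81 of 10000 total RNA reads, mostly from Gzma, and 0 g/kg overlapped 8 g/kg. Cd79b, the only gene of the B cell list analysed here, had 0 reads in all 8 total RNA libraries.

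Of the 8 genes, 6 lie in the MHC region. In GRCm38.p6 coordinates, the cluster on chromosome 17 holds Tapbp (33919478 to 33929290), H2-K1 (33996012 to 34000619), Tap1 (34187556 to 34197225), Tap2 (34204479 to 34216321), H2-D1 (35263094 to 35267497) and H2-T22 (36037128 to 36042742). B2m lies on chromosome 2 (122147687 to 122153082) and Tapbpl on chromosome 6 (125223927 to 125231860). RefSeq promoter windows were found for 6 of the 8, with none for Tap2 and Tapbpl. Each window runs from 250 bases before to 50 bases after the annotated start. Stretches of 120 bases are shown for the heavy chains and B2m. These hold the interferon and NF-kappaB motifs of the pathway and include the genes that differed most between T-ALL 3 and T-ALL 2. Capitals mark the NF-kappaB motif and the interferon motif, on either strand. The interferon motif was searched in a short form (GAA, any 2 bases, GAAA) and a long form (GAAA, any 2 bases, GAAA). The long form does not contain the short form, and no stretch shown held both. The stretches are chr17:34000359-34000478 (minus strand), chr17:35262903-35263022 (plus strand), chr17:36042856-36042975 (minus strand) and chr2:122147528-122147647 (plus strand), in the order printed.
H2-K1: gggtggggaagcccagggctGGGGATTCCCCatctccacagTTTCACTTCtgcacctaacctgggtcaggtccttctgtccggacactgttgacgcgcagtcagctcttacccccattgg
H2-D1: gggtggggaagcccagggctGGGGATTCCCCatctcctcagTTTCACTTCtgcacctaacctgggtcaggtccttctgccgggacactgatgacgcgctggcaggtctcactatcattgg
H2-T22: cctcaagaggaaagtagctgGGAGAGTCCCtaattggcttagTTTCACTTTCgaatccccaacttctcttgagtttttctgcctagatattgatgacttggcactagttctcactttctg
B2m: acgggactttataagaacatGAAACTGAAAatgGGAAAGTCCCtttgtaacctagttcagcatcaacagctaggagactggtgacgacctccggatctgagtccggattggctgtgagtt

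H2-K1 and H2-D1 read almost alike here: from the first base of the NF-kappaB motif, 49 of 50 bases are equal. Both carry the short interferon motif, a match on the minus strand that lies after the NF-kappaB motif. In H2-T22 the same order holds with the long interferon motif, and B2m has the interferon motif first. The NF-kappaB motif was present in 4 of 6 windows against 8.18% of all 27025 promoter windows of this length. The long interferon motif was present in 2 of 6 windows against 3.49% of all, and the short motif in 2 further windows against 7.56%. Both windows of the loading genes Tap1 and Tapbp lacked these 3 motifs, which says only that the letters are not in that stretch. All 6 windows held CCAAT (37.9% of all windows) and 5 of 6 held TGACG (21.0%), short motifs that can overlap longer ones.

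The level of a gene in FPKM is compared between genes per length. B2m was the most abundant of the 8, at 805 to 1325 FPKM in total RNA, and its range did not meet that of any other. H2-K1 followed at 49.9 to 279 FPKM, then H2-D1 at 24.98 to 186 and Tap2 at 61.9 to 81.3, whose ranges overlap. The other 4 lay lower, Tapbp at 22.1 to 78.3, H2-T22 at 17.4 to 46.5, Tapbpl at 13.9 to 40.8 and Tap1 at 17.8 to 33.9, and these ranges overlap as well. H2-K1, H2-D1 and H2-T22 are close relatives of each other and of further class I genes, and reads that fit several of them may not be assigned to the right one, so each single heavy chain level is uncertain.

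**Figure D1:**
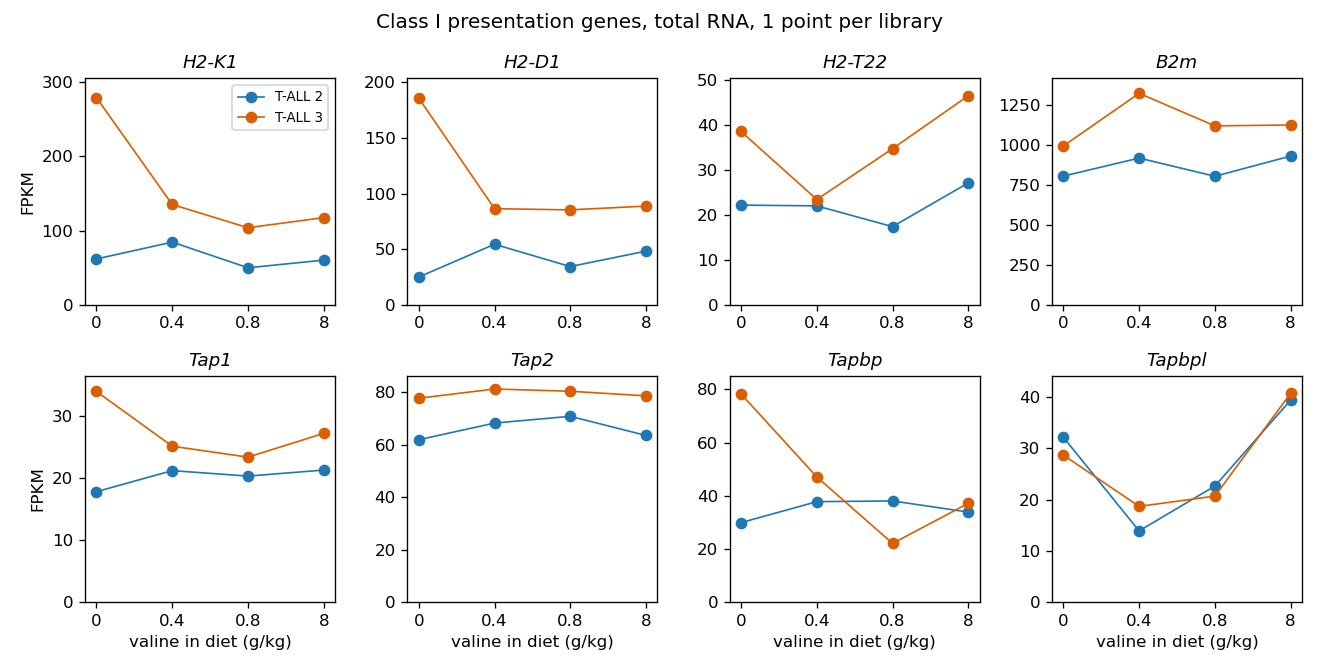
FPKM in total RNA (y axis, linear from 0) of the 8 genes against dietary valine (x axis, 4 diets evenly spaced), with 1 point per library and lines joining the libraries of T-ALL 2 (blue) and T-ALL 3 (orange). T-ALL 3 lies above T-ALL 2 at every diet for 6 genes, H2-K1 and H2-D1 peak in T-ALL 3 at 0 g/kg with 279 and 186 FPKM, and Tapbpl is highest at 8 g/kg in both.

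The design examines ribosome occupancy under changed valine supply, so each diet was set against the control first. No member passed the test at any dose in total RNA, RPF or their ratio. limma called 0 of 8 members at an adjusted p under 0.05 in each comparison of 0, 0.4 or 0.8 g/kg with 8 g/kg, and 0% of all genes, 10054 tested in total RNA, 9718 in RPF and 9361 for the ratio. The 3 comparisons of a fraction share the 2 control libraries. At an unadjusted p under 0.05, total RNA had 0, 1 and 1 members at 0, 0.4 and 0.8 g/kg, against 6.58%, 3.09% and 3.45% of all genes. By direction these shares were 2.57% higher and 4.02% lower at 0 g/kg, 1.59% and 1.5% at 0.4 g/kg, and 1.31% and 2.14% at 0.8 g/kg. RPF had 1, 2 and 0 members, against 7.17%, 6.67% and 5.58%. limma's voom on recovered reads also called 0 members in these comparisons.

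Tapbpl, the peptide editor outside the transporter complex, had its highest levels on the control diet in both T-ALL 2 and T-ALL 3. In total RNA it read 39.4 FPKM in T-ALL 2 and 40.8 in T-ALL 3 at 8 g/kg, 32.2 and 28.7 at 0 g/kg, 13.9 and 18.7 at 0.4 g/kg, and 22.6 and 20.7 at 0.8 g/kg. All 6 low-valine libraries lay below both control libraries, and the lowest levels were those at 0.4 g/kg and not those without valine. The log2 change in total RNA from 8 g/kg was -1.29 ± 0.22 (SE) at 0.4 g/kg, with an unadjusted p of 0.00033 and an adjusted p of 1 (limma). At 0.8 g/kg it was -0.87 ± 0.22, with an unadjusted p of 0.0039 and an adjusted p of 1, and at 0 g/kg it was -0.39 ± 0.22 with an adjusted p of 0.853. The test for any difference among the 4 diets gave Tapbpl an unadjusted p of 0.0017 and an adjusted p of 0.52.

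The RPF levels of Tapbpl were also highest on the control diet, on few reads, and here the fitted change was largest without valine and not at 0.4 g/kg. They were 44.8 and 84.0 FPKM at 8 g/kg, from 5 and 16 reads, against 14.2 and 14.1 at 0 g/kg, from 3 reads each. At 0.4 g/kg they were 26.8 and 12.9 FPKM, and at 0.8 g/kg 16.2 and 39.3. Again all 6 low-valine libraries lay below both controls. The log2 change in RPF from the control was -2.08 ± 0.66 without valine, -1.69 ± 0.66 with 0.4 g/kg and -1.26 ± 0.66 with 0.8 g/kg, with adjusted p of 0.58, 0.70 and 0.93 (limma). At 0.8 g/kg this was -0.64 without the T-ALL 2 library of that diet and -0.81 without the T-ALL 3 control. Of all genes tested, 4.39% had all 6 low-valine libraries below both controls in total RNA, 3.09% in RPF, and 0.267% (25 of 9361) in both fractions, and Tapbpl was the only member to do so. Relative to its RNA, RPF of Tapbpl at 0 g/kg differed by -1.69 ± 0.77 (log2), with an adjusted p of 0.80. Erythroid markers were also highest at 8 g/kg in both fractions, and their part in the Tapbpl levels was not tested. In sorted bulk cells, fewer cells of a type and less RNA per cell cannot be told apart.

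**Figure D2:**
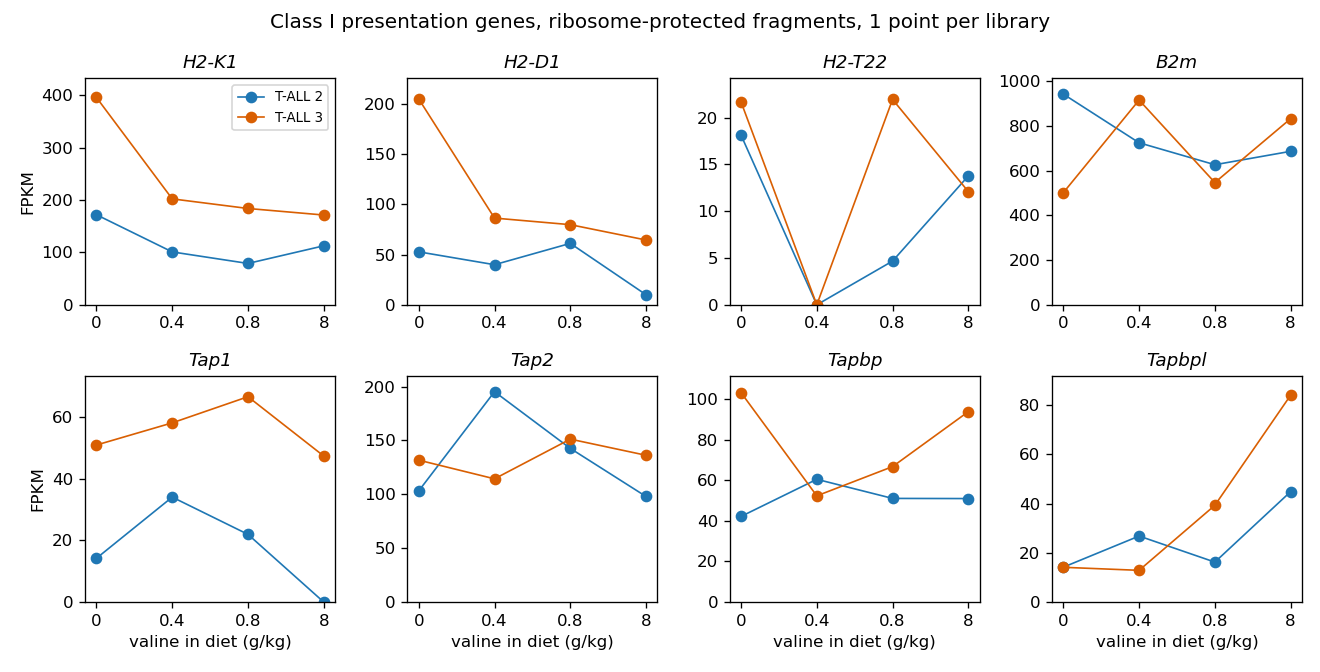
FPKM in ribosome-protected fragments (y axis, linear from 0) of the 8 genes against dietary valine (x axis, 4 diets evenly spaced), with 1 point per library and lines joining T-ALL 2 (blue) and T-ALL 3 (orange). Tapbpl is highest at 8 g/kg in both T-ALL 2 and T-ALL 3, at 44.8 and 84.0 FPKM. H2-T22 is 0 in both libraries at 0.4 g/kg, and Tap1 is 0 in T-ALL 2 at 8 g/kg.

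The heavy chains H2-K1 and H2-D1, which present peptides to CD8+ T cells, did not separate the diets in total RNA. H2-K1 total RNA read 61.8, 84.5, 49.9 and 60.2 FPKM in T-ALL 2 at 0, 0.4, 0.8 and 8 g/kg, and 279, 135, 104 and 117 FPKM in T-ALL 3. H2-D1 total RNA read 24.98, 54.4, 34.3 and 48.3 FPKM in T-ALL 2, and 186, 86.4, 85.4 and 88.7 FPKM in T-ALL 3. At 0 g/kg H2-D1 was therefore at its lowest in T-ALL 2 and at its highest in T-ALL 3. The log2 change in total RNA at 0 against 8 g/kg was 0.64 ± 0.66 for H2-K1 (adjusted p 0.90) and 0.06 ± 0.82 for H2-D1 (adjusted p 0.997, limma). Without the valine-free library of T-ALL 3 these values turned to -0.44 and -1.37.

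In RPF, H2-K1 read 172, 101, 78.9 and 113 FPKM in T-ALL 2 and 395, 202, 184 and 171 FPKM in T-ALL 3, in the same order of diets. Both libraries at 0 g/kg lay above both controls, the higher control at 171 FPKM lying just under the lower of the valine-free libraries at 172 FPKM. Of all genes, 16.7% had both RPF libraries at 0 g/kg above both at 8 g/kg. H2-D1 RPF read 52.8, 40.0, 61.2 and 10.03 FPKM in T-ALL 2 and 205, 86.5, 79.9 and 64.6 FPKM in T-ALL 3. The value of 10.03 rests on 1 read. The log2 change in RPF at 0 against 8 g/kg was 0.91 ± 0.60 for H2-K1 (adjusted p 0.82) and 2.0 ± 0.95 for H2-D1 (adjusted p 0.76, limma). For H2-K1 this was 0.31 without the valine-free library of T-ALL 3 and 1.51 without that of T-ALL 2. For H2-D1 it was 0.69 without the T-ALL 2 control, 3.31 without the T-ALL 3 control and 1.03 without the valine-free library of T-ALL 3. RPF relative to RNA differed by 1.94 ± 0.80 (log2) for H2-D1 at 0 against 8 g/kg, with an adjusted p of 0.74, and by 1.06 without the T-ALL 2 control pair. Neutrophil markers were highest in these valine-free libraries as well, and their part in the heavy chain footprints was not tested.

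H2-T22, a class I molecule outside the classical set that some gamma-delta T cells recognise, had no footprint reads at 0.4 g/kg. Its total RNA read 22.2, 22.02, 17.4 and 27.1 FPKM in T-ALL 2 and 38.6, 23.4, 34.8 and 46.5 FPKM in T-ALL 3 at 0, 0.4, 0.8 and 8 g/kg. Both libraries at 0.4 g/kg lay below both controls, as for 19% of all genes. In RPF both 0.4 g/kg libraries held 0 reads of H2-T22, which allows up to 0.00213% and 0.00513% of their reads (3 reads, counting error only). The other diets had few reads as well, with 11, 11 and 5 reads over both libraries at 0, 0.8 and 8 g/kg. Per 10000 RPF reads, the limit at 0.4 g/kg was 0.213 in T-ALL 2, under the 0.478 of its control, but 0.513 in T-ALL 3, above the 0.420 of its control. The controls rest on 2 reads in T-ALL 2 and 3 reads in T-ALL 3, and their own counting error is not in these limits. At this depth a reduction cannot be told from counting error in T-ALL 2 or in T-ALL 3. limma gave an unadjusted p of 0.0027 and an adjusted p of 0.56 for this comparison.

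B2m, the light chain shared by all class I molecules, had the highest level of the 8 genes in every library. Its total RNA read 806, 919, 805 and 932 FPKM in T-ALL 2 and 995, 1325, 1121 and 1127 FPKM in T-ALL 3 at 0, 0.4, 0.8 and 8 g/kg. Its RPF read 942, 725, 626 and 686 FPKM in T-ALL 2 and 502, 916, 547 and 832 FPKM in T-ALL 3. The diets overlapped in both fractions except at 0.8 g/kg in RPF, where both libraries lay below both controls, as for 9.82% of all genes.

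The transporter genes Tap1 and Tap2 did not separate any diet from the control in total RNA. Tap1 read 17.8, 21.2, 20.3 and 21.2 FPKM in T-ALL 2 and 33.9, 25.1, 23.3 and 27.2 FPKM in T-ALL 3 at 0, 0.4, 0.8 and 8 g/kg. Tap2 read 61.9, 68.3, 70.8 and 63.5 FPKM in T-ALL 2 and 77.7, 81.3, 80.4 and 78.6 FPKM in T-ALL 3. In RPF, Tap1 read 14.2, 34.0, 21.9 and 0 FPKM in T-ALL 2, the last from a library of 41848 reads in which a count of 0 allows a share of up to 0.00717%. The T-ALL 3 libraries had 50.9, 58.1, 66.6 and 47.3 FPKM of Tap1 in RPF. Tap2 RPF read 103, 195, 143 and 98.0 FPKM in T-ALL 2 and 132, 114, 151 and 136 FPKM in T-ALL 3, and at 0.8 g/kg both libraries lay above both controls, as for 21.5% of all genes.

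Tapbp, the tapasin that bridges class I to the transporter, ranged more widely in T-ALL 3 than in T-ALL 2. Its total RNA read 29.9, 37.8, 38.04 and 33.9 FPKM in T-ALL 2 and 78.3, 47.1, 22.1 and 37.1 FPKM in T-ALL 3 at 0, 0.4, 0.8 and 8 g/kg. Thus T-ALL 3 had both the highest and the lowest of the 8 libraries, and the lowest rests on 21 reads. Both libraries at 0.4 g/kg lay above both controls, as for 18.4% of all genes. Its RPF read 42.2, 60.5, 51.1 and 51.0 FPKM in T-ALL 2 and 103, 52.3, 66.7 and 93.8 FPKM in T-ALL 3.

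T-ALL 3 libraries were then set against T-ALL 2 libraries, with diet as a term in the model. Over all 10054 genes, the T-ALL 3 minus T-ALL 2 differences correlated between diets only at -0.04 to 0.25 (Pearson's r). Over the whole table the difference therefore repeated weakly from diet to diet. All 8 members had a higher fitted level in total RNA of T-ALL 3, with a median log2 difference of 0.41 against -0.03 over all genes. limma called 0 of 8 members and 0% of 10054 genes at an adjusted p under 0.05. At an unadjusted p under 0.05, 6 of 8 members were higher and 0 lower, against 3.28% of all genes higher and 4.24% lower. By voom on the recovered reads, H2-K1, H2-D1 and B2m were called, with adjusted p of 0.0074, 0.021 and 0.033, among 69 of 10054 genes.

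The largest differences were those of the heavy chains that present to CD8+ T cells. H2-D1 was higher in T-ALL 3 by 1.43 ± 0.32 (log2, SE, adjusted p 0.35) and H2-K1 by 1.21 ± 0.22 (adjusted p 0.31, limma). Their T-ALL 3 levels did not overlap those of T-ALL 2: H2-K1 spanned 104 to 279 FPKM against 49.9 to 84.5. H2-D1 spanned 85.4 to 186 FPKM against 24.98 to 54.4. The difference was largest without valine, where the T-ALL 3 library held 7.44 times the H2-D1 and 4.52 times the H2-K1 of the T-ALL 2 library. At 0.4, 0.8 and 8 g/kg the ratios were 1.59, 2.48 and 1.84 for H2-D1 and 1.60, 2.08 and 1.95 for H2-K1. Whether the difference at 0 g/kg exceeded that at the other diets was tested with an interaction term, which gave H2-D1 an unadjusted p of 0.010 and an adjusted p of 0.59, and H2-K1 0.026 and 0.63 (limma). That term was not among the planned tests and takes up the diet with the largest gap, so these are not p-values of a planned test. It rests on a single difference at 0 g/kg for each gene. Without both valine-free libraries the differences between T-ALLs were 0.94 for H2-D1 and 0.89 for H2-K1 on the log2 scale.

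B2m was higher in T-ALL 3 by 0.40 ± 0.08 (log2, adjusted p 0.31), and by 0.43 without the valine-free libraries. H2-T22 was higher by 0.65 ± 0.19 (adjusted p 0.43), with overlapping ranges because at 0.4 g/kg T-ALL 3, with 23.4 FPKM, lay below the T-ALL 2 control at 27.1. The transporter subunits differed less, Tap1 by 0.42 ± 0.18 and Tap2 by 0.27 ± 0.11 (log2, limma, adjusted p 0.66 for both). Yet neither overlapped between T-ALL 3 and T-ALL 2. Tapbp differed by 0.26 ± 0.30 and Tapbpl by 0.04 ± 0.17 (log2), less than their SE. In all, the total RNA ranges of T-ALL 3 lay wholly above those of T-ALL 2 for 5 of 8 members (H2-K1, H2-D1, B2m, Tap1 and Tap2), against 2.1% of all genes. The 8 members together took 17.4 to 25.01 of 10000 total RNA reads in T-ALL 3 and 12.6 to 14.4 in T-ALL 2.

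**Figure D3:**
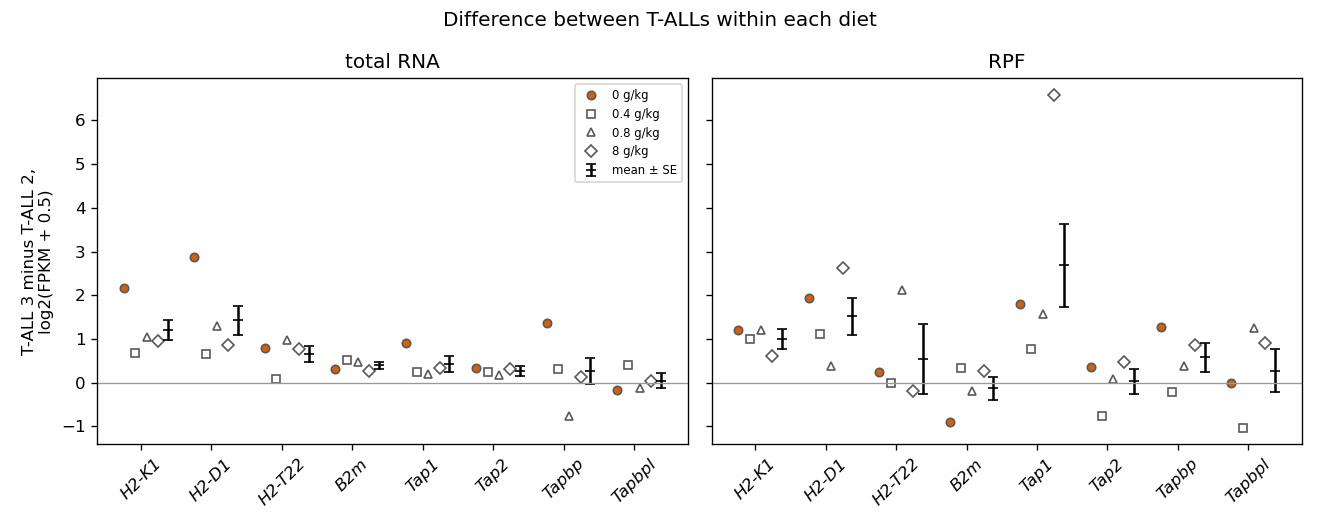
Difference of T-ALL 3 minus T-ALL 2 in log2(FPKM + 0.5) (y axis) for the 8 genes (x axis) in total RNA (left) and RPF (right), with 1 symbol per diet and the 0 g/kg pair filled, and bars for the mean over 4 diets with its SE from limma. In total RNA the 4 diets lie above 0 for 6 genes, with means of 1.43 for H2-D1 and 1.21 for H2-K1, and in RPF for H2-K1, H2-D1 and Tap1, where the point of Tap1 at 8 g/kg rests on 0 reads in T-ALL 2.

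Footprints separated T-ALL 3 from T-ALL 2 for fewer of the 8 genes. limma called 0 of 8 members and 0% of 9718 genes in RPF. Over these genes the T-ALL 3 minus T-ALL 2 differences correlated between diets at -0.02 to 0.07 (Pearson's r). At an unadjusted p under 0.05, 3 members were higher in T-ALL 3 and 0 lower, against 2.08% of all genes higher and 3.32% lower. These were H2-K1, higher by 1.0 ± 0.23, H2-D1, higher by 1.52 ± 0.42, and Tap1, higher by 2.68 ± 0.95 (log2, adjusted p 0.82 for each, limma). The value of Tap1 rests in part on the 0 reads in the T-ALL 2 control, and without that library it was 1.38. RPF ranges did not overlap for H2-D1 (64.6 to 205 FPKM against 10.03 to 61.2) and Tap1 (47.3 to 66.6 against 0 to 34.0), 2 of 8 members against 1.27% of all genes. For B2m footprints the log2 difference was -0.12 ± 0.26, with T-ALL 3 higher in 2 of 4 diets. The RPF/RNA ratio between T-ALL 3 and T-ALL 2 gave 0 of 8 members and 0% of 9361 genes (adjusted p under 0.05). At an unadjusted p under 0.05 it gave 0 members, against 4.8% of all genes.

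Across the 8 total RNA libraries the members varied together to different degrees. This is given as a description, since the libraries differ in diet, T-ALL number and depth. Pearson's r of log2(FPKM + 0.5) was 0.94 between H2-K1 and H2-D1, 0.97 between H2-D1 and Tap1 and 0.93 between H2-K1 and Tap1. It was 0.81 between B2m and Tap2. For Tapbpl r ran from -0.23 with Tap2 to 0.48 with H2-T22, and was -0.04 with H2-K1. For Tapbp it ran from 0.02 with Tapbpl to 0.70 with Tap1. Among 5522 genes with a mean of at least 10 FPKM, those whose levels were most like the mean standardised profile of the members were Ppfia1 (r 0.97), Mid1 (0.95), Bax (0.94), Gimap1 (0.94) and Crbn (0.93), over the same 8 libraries.

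Ribosome occupancy of each mRNA is given by RPF against total RNA over the 8 pairs of libraries. Tap2 had more footprints than total RNA, H2-T22 had fewer, and these were the only called members. limma called 2 of 8 members against 9.71% of 9361 genes, Tap2 at 0.85 ± 0.17 (log2, SE, adjusted p 0.036) and H2-T22 at -2.18 ± 0.41 (adjusted p 0.033), with 3.41% of all genes called higher and 6.3% called lower. The median of this fitted value over all genes was -0.59, so that values are best read against that shift. Medians of single pairs over all genes were higher, from -0.56 to -0.15. H2-K1 at 0.71 ± 0.18 (adjusted p 0.052) and Tapbp at 0.70 ± 0.20 (adjusted p 0.068) came next. In all 8 pairs RPF exceeded total RNA for H2-K1, Tap2 and Tapbp, 3 of 8 members against 4.07% of all genes. The lowest and highest pair were 0.25 and 1.47 for H2-K1, 0.49 and 1.51 for Tap2, and 0.15 and 1.58 for Tapbp.

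H2-T22 lay below 0 in all 8 pairs, as 12.4% of all genes did, with a median of -1.37. Its mean was drawn down by both 0.4 g/kg pairs, at -5.49 and -5.58, in which RPF held 0 reads, so the size depends on the value of 0.5 added before the logarithm. With 0.1 added H2-T22 was no longer called. B2m had -0.49 ± 0.25, H2-D1 -0.15 ± 0.28, Tap1 -0.11 ± 0.64 and Tapbpl -0.01 ± 0.27 (limma, adjusted p of 0.20 to 0.98). All were above -0.59, the median of the fitted value over all genes. Against the median of each single pair, B2m was higher in 3 of 8 pairs, H2-D1 and Tapbpl in 5 and Tap1 in 6. H2-K1 exceeded H2-D1 by 1.22 to 2.47 times in total RNA and by 1.29 to 11.2 times in RPF, the highest from the library with 1 read of H2-D1. The calls of Tap2 and H2-T22 were lost when any 1 pair was left out, with adjusted p of 0.065 to 0.123 for Tap2 and 0.063 to 0.122 for H2-T22, and only 1 to 15 genes of the whole table were then called. With the replicate block, the T-ALL number as a term in the model, both calls were lost as well, at an adjusted p of 0.059 each. They were also lost without both valine-free pairs, where 3 genes were called in all.

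**Figure D4:**
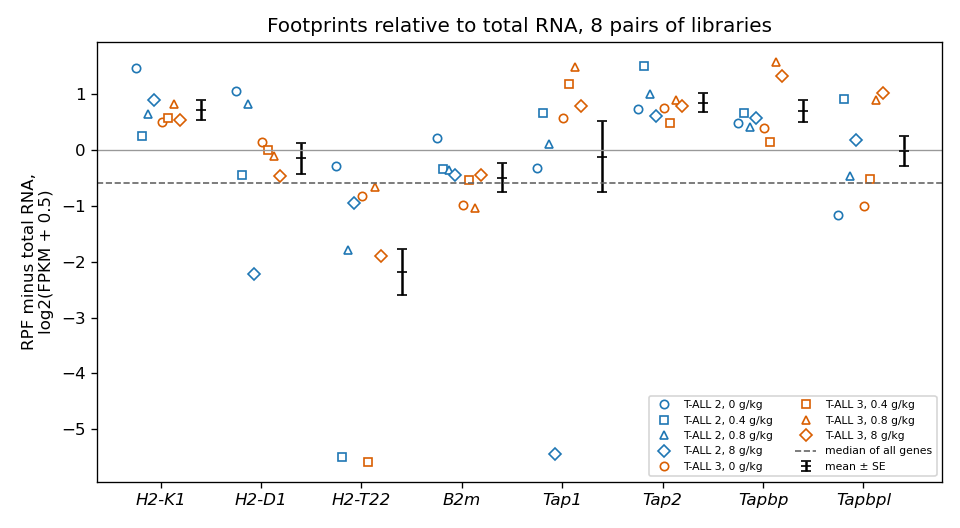
RPF minus total RNA in log2(FPKM + 0.5) (y axis) for the 8 genes (x axis), with 1 symbol per pair of libraries, blue for T-ALL 2 and orange for T-ALL 3, bars for the mean with its SE from limma, and a dashed line at the median of all genes, -0.59. All 8 pairs of H2-K1, Tap2 and Tapbp lie above 0, and the lowest points of H2-T22 and Tap1 come from libraries with 0 RPF reads.

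Other genes of the pathway, from lists chosen with earlier results of these data known, were read in the same comparisons. None of these lists held a gene called by limma in T-ALL 3 against T-ALL 2. Of 32 interferon response genes listed, 27 were tested in total RNA, and 24 had a higher and 3 a lower fitted level in T-ALL 3. At an unadjusted p under 0.05, 12 were higher and 0 lower, against 3.28% of all genes higher and 4.24% lower. The median log2 difference was 0.75, against -0.03 over all genes. Their summed share was 7.78 to 11.5 of 10000 total RNA reads in T-ALL 3 and 5.77 to 6.64 in T-ALL 2, without overlap. The 3 most abundant did not all go that way. Bst2, which tethers budding virus, was higher by 0.50 ± 0.13 (log2, adjusted p 0.39), Isg15, a ubiquitin-like modifier, by 0.26 ± 0.18 (adjusted p 0.81), and Sp100, a nuclear body protein, had -0.40 ± 0.19 (adjusted p 0.68, limma).

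Transcriptional regulators of class I took 8.47 to 11.5 of 10000 total RNA reads in T-ALL 3 and 6.77 to 7.99 in T-ALL 2. Of these 16 genes, 4 were higher and 1 lower at an unadjusted p under 0.05, against the same 3.28% and 4.24% of all genes, and the median log2 difference was 0.12. Irf1, an interferon regulatory factor, was higher in T-ALL 3 by 0.77 ± 0.21 (log2, adjusted p 0.40), and its levels of 34.2 to 53.0 FPKM lay above the 19.5 to 31.0 FPKM of T-ALL 2. Nfkb1, an NF-kappaB subunit, was higher by 0.39 ± 0.16 (adjusted p 0.64) and Nfyc, which binds CCAAT, by 0.09 ± 0.16 (adjusted p 0.94, limma). Of the interferon receptor and kinase genes, 2 of 7 were higher and 1 lower at an unadjusted p under 0.05 (3.28% and 4.24% of all genes), with a median of 0.08. The kinase Jak2 differed by 0.54 ± 0.20, the receptor chain Ifngr1 by -0.47 ± 0.18 and the kinase Jak1 by -0.08 ± 0.16 (log2).

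Other class I genes had a median log2 difference of 0.31 over 13 tested of 23 listed, with 3 higher and 0 lower at an unadjusted p under 0.05. The shares of 3.28% higher and 4.24% lower over all genes stand beside this count and those of the next lists. H2-Q4 was higher by 0.81 ± 0.33 (adjusted p 0.64), while H2-Q2 had -0.10 ± 0.24 and H2-T23, the ligand of NKG2A receptors, 0.03 ± 0.15 (log2, limma). Immunoproteasome genes, which cut peptides that suit class I, differed little, with 1 of 5 higher at an unadjusted p under 0.05. Psmb10 was higher by 0.25 ± 0.11, Psmb8 by 0.12 ± 0.10, and Psme1 had -0.09 ± 0.11 (log2). The loading, trimming and protein translocation genes of the endoplasmic reticulum had a median of 0.02 over 8 genes. Calr was at 0.31 ± 0.12, Pdia3 at -0.11 ± 0.12 and Sec61b at -0.11 ± 0.11 (log2), and 1 of 8 was higher at an unadjusted p under 0.05. Of 7 class II genes tested, which antigen presenting cells use, 3 had a higher and 4 a lower fitted level, with a median of -0.18, and 1 was higher at an unadjusted p under 0.05. The most abundant, H2-Oa, had -0.41 ± 0.28 and H2-DMa -0.18 ± 0.31 (log2), while Cd74, the invariant chain, was the gene that was higher, by 1.75 ± 0.36 (adjusted p 0.31, limma). The class II list took 0.576 to 1.24 of 10000 total RNA reads in T-ALL 3 and 0.646 to 0.936 in T-ALL 2, which overlap, and macrophage markers took 0.0548 to 0.189 and 0.102 to 0.241. Shallower T-ALL 3 libraries and these marker levels stand beside the differences between T-ALL 3 and T-ALL 2. Their part in these differences was not tested.

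**Figure D5:**
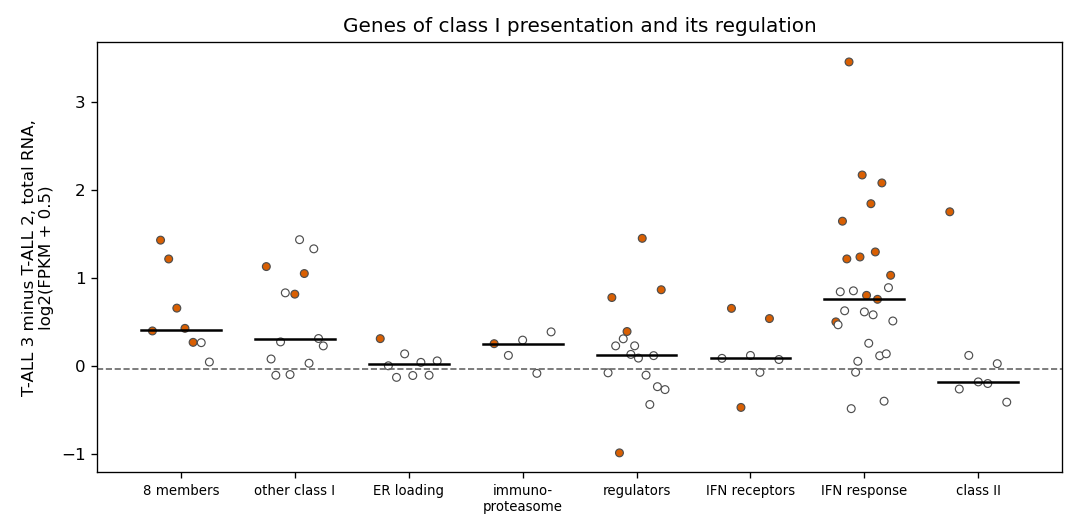
Difference of T-ALL 3 minus T-ALL 2 in log2(FPKM + 0.5), total RNA (y axis), for the 8 members and 7 lists of related genes (x axis, IFN for interferon), with 1 point per gene, orange where limma's unadjusted p was under 0.05, a bar at each median and a dashed line at the median of all genes, -0.03. The medians are 0.41 for the members and 0.75 for the interferon response genes, and no gene shown passed at an adjusted p under 0.05.

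In RPF of T-ALL 3 against T-ALL 2, interferon response genes had a median log2 difference of 0.60 over 24 tested, with 0 genes at an unadjusted p under 0.05, and other class I genes a median of 0.84 over 13 tested, with 1 higher and 2 lower, against 2.08% and 3.32% of all genes. H2-Q4 spanned 23.3 to 38.8 FPKM in T-ALL 3, from 4 to 12 reads a library, and 3.67 to 17.1 in T-ALL 2, from 1 to 6 reads. Of all genes, 1.27% had RPF ranges of T-ALL 3 wholly above those of T-ALL 2. In RPF against total RNA, limma called 2 of 8 genes of the endoplasmic reticulum list and 3 of 24 interferon response genes, against 9.71% of all genes. Uggt1, which senses the folding of glycoproteins and acts on class I with TAPBPR, was called at 0.97 ± 0.17 (log2, adjusted p 0.031), and Sec61b, a subunit of the protein translocon, at -1.33 ± 0.33 (adjusted p 0.0499). The interferon response genes were Ifi35 at 1.47 ± 0.27 (adjusted p 0.033), Gbp3, a guanylate-binding protein, at -2.96 ± 0.51 (adjusted p 0.029) and the apoptosis-linked Xaf1 at -1.81 ± 0.44 (adjusted p 0.0495, limma). In RPF, Gbp3 had 2 reads in the T-ALL 3 control and 0 in every other library, and Xaf1 had 0 or 1 read in each. The sizes for Gbp3 and Xaf1 therefore depend on the value of 0.5 added before the logarithm. Each of these 5 calls was lost whichever pair was left out, at adjusted p of 0.062 to 0.161 (Gbp3 was tested in 7 of the 8 cases), and with the replicate block only Ifi35 was called (adjusted p 0.0486). No immunoproteasome, other class I or regulator gene was called in that comparison, out of 5, 12 and 16 tested.

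With diet, the lists showed no called gene in total RNA, RPF or their ratio by limma. At 0 against 8 g/kg in total RNA the interferon response list had a median log2 change of 0.45 against -0.04 for all genes, with 1 gene higher and 1 lower at an unadjusted p under 0.05, against 2.57% and 4.02% of all genes. The regulators had a median of 0.10, the immunoproteasome -0.14 and other class I genes -0.14, with 0 genes at an unadjusted p under 0.05 in each. The members had a median of 0.0024, 4 of 8 with a higher and 4 with a lower fitted level.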

How the data were processed

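STAR 2.5.0c, Bowtie2 2.3.4, cutadapt 1.18 and edgeR 3.14.0 are listed, beside the builds GRCm38 and mm10, per the submitters' processing notes. The role of each tool is not given in the sources used here, nor is the counting rule. FPKM values were deposited by the authors for 12012 genes in 16 libraries. Values were whole multiples of 1 read over gene length, and reads were recovered from them: 100% of 149988 values above 0 were whole within 0.02 reads. Doses are those of the sample characteristics, in g/kg. The treatment protocol instead speaks of valine in drinking water.

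limma 3.58.1 (R 4.3.3) was run per fraction on log2(FPKM + 0.5), for genes with a mean of at least 1 FPKM, with diet as a factor. Comparisons of T-ALL 3 with T-ALL 2 used diet and T-ALL number. RPF minus total RNA of the same diet and T-ALL number gave the ratio. Fold changes are on this log2(FPKM + 0.5) scale, which understates the change of genes at low FPKM when no library is at 0. Where a library held 0 reads, the 0.5 added sets the size of the change. In RPF that change can be large, because 1 read can equal many FPKM (10.03 for H2-D1 in the T-ALL 2 control). Tests were two-sided, with p-values adjusted by Benjamini-Hochberg at 0.05 over all genes tested. SE come from the moderated variance. The recovery of reads and the fits were tested on simulated data. Alternatives were other pseudocounts and filters, median centring, voom on recovered reads, a replicate block and left-out libraries. The members and lists were chosen with earlier results of these data known. Genes named from other lists were those past the test and the 3 most abundant in total RNA. For a count of 0, the limit given is 3 reads. Such limits cover counting error only, because PCR copies are not independent molecules.

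T-ALL numbers recur in every diet. The T-ALL 3 minus T-ALL 2 differences correlated between diets at -0.04 to 0.25 over 10054 genes in total RNA and at -0.02 to 0.07 over 9718 genes in RPF, so they were not taken to pair the samples.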

Additional observations from a re-analysis of the deposited data

Results flagged for a closer look

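In 32 sets of 4 libraries (each member, fraction and T-ALL number), 2 held a library whose gap to the next exceeded Dixon's 95% critical value for 4 samples, and chance flags about 1 in 20 sets (5%). Gaps and ranges were taken on the log2(FPKM + 0.5) scale. H2-D1 total RNA in T-ALL 3 at 0 g/kg, 186 FPKM, stood above the other diets by 0.95 of the range. H2-T22 RPF in T-ALL 3 at 0.4 g/kg, 0 FPKM, stood below them by 0.848 of the range. That library held 0 reads of H2-T22, so the size of this gap depends on the 0.5 added before the logarithm.

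At 0 and 0.8 g/kg the change of Tapbp from the control had opposite signs in T-ALL 2 and T-ALL 3 in both fractions. However, 1 of these values was near 0, and the difference was not tested at 0.8 g/kg. At 0 against 8 g/kg its log2 change was -0.18 in total RNA and -0.27 in RPF of T-ALL 2, and 1.07 and 0.14 in T-ALL 3. At 0.8 against 8 g/kg it was 0.17 in total RNA and 0.0021 in RPF of T-ALL 2, and -0.74 and -0.49 in T-ALL 3. At 0.4 g/kg total RNA had the same sign in both, 0.16 in T-ALL 2 and 0.34 in T-ALL 3, and RPF 0.24 and -0.84. For total RNA, the term for a different T-ALL gap at 0 g/kg than at the other diets gave Tapbp an unadjusted p of 0.061 and an adjusted p of 0.70 (limma).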

How the results depend on the processing

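Counts of called members kept within 1.5 times of the reported count in 111 of 117 alternatives that left out no single library, and log2 values kept direction and side of the threshold in 218 of 244. For RPF against total RNA, called members numbered 1 with a pseudocount of 0.1 (374 genes in all), 4 with libraries centred on the median, 4 by voom (1980 genes), 0 with the replicate block (239 genes) and 0 without both valine-free libraries, against 2 reported (909 genes). Leaving out 1 pair gave 0 in every case. The count for T-ALL 3 against T-ALL 2 in total RNA was 3 by voom (69 genes). Values near 0 turned sign. For RPF against total RNA, centring gave Tap1 0.12, Tapbpl 0.22 and H2-D1 0.085, voom gave them 0.48, 0.36 and 0.20, and Tapbpl was 0.34 without both valine-free libraries. H2-D1 total RNA at 0 against 8 g/kg was -0.10 by voom, and Tapbp total RNA between T-ALLs was -0.11 without both valine-free libraries. With 1 library or pair left out, RPF against total RNA ranged from -0.89 to 0.66 for Tap1, from -0.19 to 0.17 for Tapbpl and from -0.37 to 0.074 for H2-D1. In total RNA at 0 against 8 g/kg, H2-K1 ranged from -0.44 to 1.72 and H2-D1 from -1.37 to 1.498. Between T-ALLs, Tapbp ranged from -0.11 to 0.61 and Tapbpl from -0.081 to 0.11. Their causes were not tested. The replicate block changed no other count. Leaving out both valine-free libraries, or the diet term for RPF against total RNA, and refits for called genes of the other lists, were added after the data were seen. The interaction term for the gap between T-ALLs at 0 g/kg was not among the planned tests. RPF depth limits H2-T22, Tapbpl and Tap1, with 0 to 31 reads a library.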
